A study of Mus musculus with 282 samples.

Results

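Cytokines of the interleukin 6 family and their signalling genes were followed in single basal prostate stem cells from inflamed and naive mouse prostates. The 9 genes, taken by symbol from a list of 9, were the ligand gene Lif, the receptor genes Il6st, Osmr, Lifr and Il6ra, the interleukin 4 and 13 receptor genes Il4ra and Il13ra1, the transcription factor gene Stat3 and the feedback inhibitor gene Socs3. Each matched 1 of the 48440 gene rows of the deposited tables. All cells came from male POET3 mice, a transgenic line that makes ovalbumin in the prostate and serves as a model of prostatitis. Inflamed cells (85 in batch 2 and 78 in batch 3) came from prostates labelled inflamed, and naive cells (55 in batch 2 and 64 in batch 3) from prostates labelled naive, and the sources used here do not state how inflammation was brought about, how old the animals were or how many gave cells. The sort used a viability dye and antibodies to Sca-1, CD49f, CD31 and CD45, with gates not stated, and the sorted cells were captured on a C1 instrument, and each became 1 library of full-length cDNA.

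In this family a ligand joins receptor chains at the cell surface, and most of these complexes contain gp130, the chain that Il6st encodes. Janus kinases bound to the chains then phosphorylate STAT3, which moves to the nucleus and switches on genes, among them Socs3, whose product blocks gp130 and so limits the response. Leukemia inhibitory factor (Lif) signals through gp130 with the chain from Lifr, oncostatin M through gp130 with the chain from Osmr, and interleukin 6 through gp130 with the chain from Il6ra. The chain from Il4ra pairs with that from Il13ra1 in epithelial cells and acts mainly through STAT6.

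Inflamed cells had more reads of Lif, Osmr and Il13ra1 than naive cells in both batches, by 4.0-fold to 9.52-fold. Il6st and Stat3, which set the core of the pathway, had their highest sums in naive cells of batch 3 and their difference had opposite signs in the batches. Socs3 was higher in both batches on far fewer reads, and Lifr and Il6ra were low in every set of cells. No gene of the 14713 tested passed the threshold after adjustment (edgeR's quasi-likelihood test, Benjamini-Hochberg adjusted p under 0.05, 0% called, lowest adjusted p = 0.568), so every difference below is one that missed it. At an unadjusted p under 0.05, edgeR had 742 genes higher (5.04%) and 475 lower (3.23%), and 3 of the 9 genes were among the higher ones and 0 among the lower.

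Cells needed at least 1000 detected genes and 50000 counts to be kept. This left 80 and 76 inflamed cells and 53 and 59 naive cells of batches 2 and 3, 268 in all. Their median depth was 1001870 and 998864 counts in inflamed cells and 971069 and 840863 in naive cells, and naive cells of batch 3 had the fewest detected genes (median 3432, against 4109 to 4739 in the other sets). Mitochondrial genes took a median of 3.73% and 2.82% of counts in inflamed and 2.67% and 2.26% in naive cells. Counts are reads rather than molecules, as the library chemistry has no molecular identifiers. The sorted cells carried basal markers: all 10 genes of that list had reads in each set, together 13830 and 13508 counts per 1000000 (CPM) in inflamed and 8972 and 9580 in naive cells. Markers of luminal cells came to 2605 and 2321 in inflamed and 1409 and 1998 in naive cells, those of endothelium to between 0.656 and 15.7, and those of leukocytes to between 0 and 0.0192, with Ptprc (CD45) at 0 everywhere. The stromal list came to 3361 and 4297 CPM in inflamed and 4341 and 4140 in naive cells, of which Dcn gave at least 98.2%, and Lum, Pdgfrb, Myh11 and Des were at 0 in all. Krt17 alone gave 49.4% and 41.7% of the basal total in inflamed and 20.2% and 36.6% in naive cells. The basal and luminal totals moved with the condition, and their part in the results was not tested.

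No label ties a cell to an animal, and cells of 1 animal are not replicates. The counts of all kept cells of a condition and batch were therefore added up, and the resulting 4 sums were compared. Levels of the 9 genes are CPM of a sum, scaled by TMM factors, and fold changes are inflamed over naive. Each p-value rests on the spread of the inflamed-to-naive difference over the 2 batches, which may be technical. For each gene edgeR drew that spread toward a trend over all genes (1 residual and 2.66 prior degrees of freedom). Should both batches stem from the same animals, there would be a single sample per condition.

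Promoters of the 3 genes that were higher in both batches without overlap, and of Socs3, the classical STAT3 target, are shown because all belong to a pathway whose end point is binding of STAT proteins to promoters. Each runs from 250 bases before to 50 bases after the RefSeq start (build GRCm38.p6), 5′ to 3′ on the gene's strand, and capitals mark motif matches found by search on both strands. The windows are chr11:4257318-4257617 on the plus strand for Lif, chr15:6874264-6874563 on the minus strand for Osmr, chrX:36111858-36112157 on the plus strand for Il13ra1 and chr11:117969317-117969616 on the minus strand for Socs3.
Lif: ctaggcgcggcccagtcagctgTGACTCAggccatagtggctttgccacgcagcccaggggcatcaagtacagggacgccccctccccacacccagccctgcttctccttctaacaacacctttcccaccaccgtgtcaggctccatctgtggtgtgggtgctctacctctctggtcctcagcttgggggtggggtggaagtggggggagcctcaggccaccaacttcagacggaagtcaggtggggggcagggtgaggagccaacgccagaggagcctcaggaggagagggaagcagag
Osmr: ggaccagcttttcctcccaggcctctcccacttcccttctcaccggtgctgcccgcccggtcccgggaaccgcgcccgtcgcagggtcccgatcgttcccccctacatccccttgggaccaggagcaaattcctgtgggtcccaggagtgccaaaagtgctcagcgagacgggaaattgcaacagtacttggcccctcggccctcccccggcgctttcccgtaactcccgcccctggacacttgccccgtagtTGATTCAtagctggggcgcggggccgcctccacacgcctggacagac
Il13ra1: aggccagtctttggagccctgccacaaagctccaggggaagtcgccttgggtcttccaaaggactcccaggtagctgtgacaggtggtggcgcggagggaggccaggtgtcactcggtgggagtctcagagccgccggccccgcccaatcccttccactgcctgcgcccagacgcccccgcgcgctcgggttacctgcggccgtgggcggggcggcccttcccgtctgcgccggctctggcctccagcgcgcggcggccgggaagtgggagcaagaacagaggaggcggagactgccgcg
Socs3: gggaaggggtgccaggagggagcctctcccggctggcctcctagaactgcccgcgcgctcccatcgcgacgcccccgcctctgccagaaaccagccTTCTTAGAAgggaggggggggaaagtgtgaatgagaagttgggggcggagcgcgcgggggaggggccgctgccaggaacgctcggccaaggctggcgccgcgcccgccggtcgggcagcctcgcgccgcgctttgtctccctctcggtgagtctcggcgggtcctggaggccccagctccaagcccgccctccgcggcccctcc

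The searches covered the STAT motif TTCNNNGAA, the STAT6 form of it with 1 more base in the gap, the AP-1 motif TGANTCA and the NF-kB consensus. Socs3 held TTCTTAGAA, which lies upstream of the RefSeq start, and was the 1 gene of the 9 with TTCNNNGAA, a motif found in 8.33% of 32544 promoters of the same length. None of the 9 held the STAT6 form, which 6.98% of all promoters did. The AP-1 motif stood in Lif, 228 bases before the start, and in Osmr, just after it, and in 7.79% of all promoters. The NF-kB consensus was found in Il4ra alone among the 9 and in 4.53% of all promoters. Each window shown held at most 1 match, and that of Il13ra1 held 0. These matches are letters in a window and were not tested for binding. All 9 genes had a window in the RefSeq table, and Lifr had 2. The gene spans given below are GENCODE's, and the windows of Osmr and Socs3 lie wholly inside them.

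Lif (ENSMUSG00000034394; GRCm38 chromosome 11, 4257557 to 4272514, plus strand) encodes the only ligand among the 9 genes. It stood at 163.1 and 146.6 CPM in the inflamed sums of batches 2 and 3 and at 22.9 and 35.4 CPM in the naive sums. Both inflamed sums lay above both naive ones, by 7.13-fold in batch 2 and 4.14-fold in batch 3 (log2 fold change 2.44 ± 0.51, SE, n = 2 sums each; edgeR unadjusted p = 0.0105, adjusted p = 0.568). A read of Lif was found in 75% of inflamed cells of batch 2 (95% exact interval 64.1 to 84) and in 44.7% of batch 3 (33.3 to 56.6), against 18.9% (9.44 to 32) and 16.9% (8.44 to 29) of naive cells. The naive sums were carried by single cells: 1 cell gave 73% of the naive reads of batch 2 and 59.9% of those of batch 3, whereas the highest inflamed cell gave 25.1% and 26.6%. Without the highest cell of each sum the log2 fold change was 3.61 (edgeR adjusted p = 0.567), over 1.5 times the fold of the full sums. Levels of at least 100 CPM were seen in 21 of 80 and 16 of 76 inflamed cells and in 3 of 53 and 2 of 59 naive cells.

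**Figure D1:**
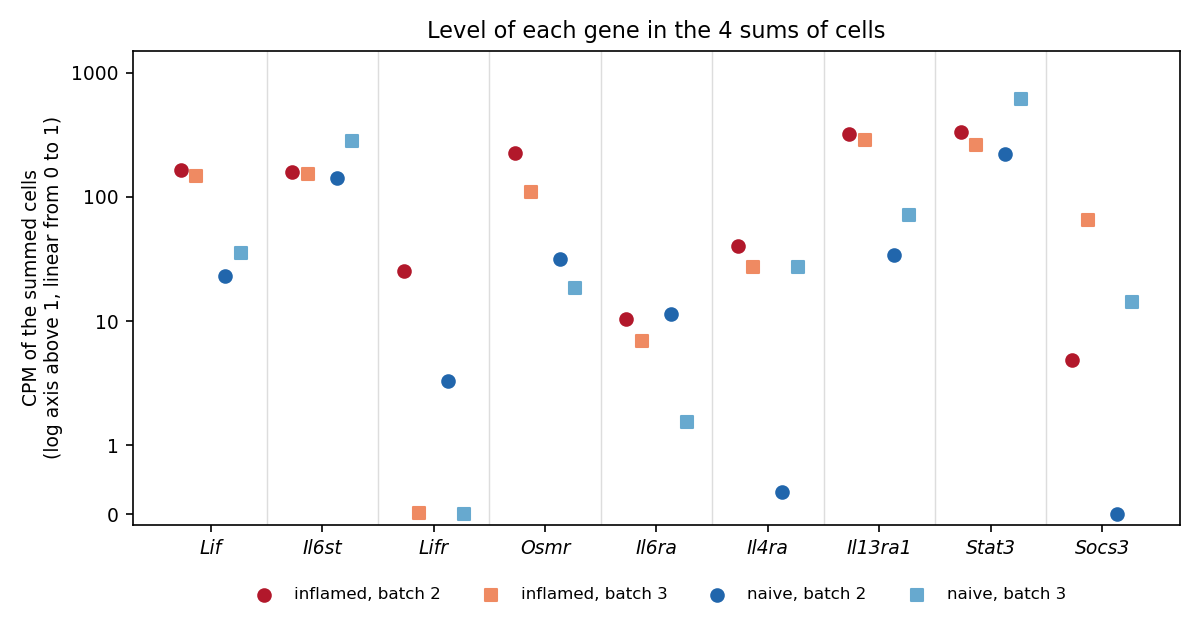
Level of each of the 9 genes in CPM (y axis, logarithmic above 1) in the summed cells of each condition and batch (1 point per sum; inflamed left of naive within each gene). For Lif, Osmr and Il13ra1 both inflamed points lie above both naive points, and for Stat3 and Il6st the naive point of batch 3 is the highest.

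Among the receptors, Osmr (ENSMUSG00000022146; chromosome 15, 6813577 to 6874969, minus strand), a chain of the oncostatin M receptor, had the smallest unadjusted p of the 9 genes. Its level was 227 and 109.7 CPM in the inflamed sums and 31.4 and 18.4 CPM in the naive sums. The groups did not overlap, and the folds of 7.25 and 5.96 were close in the batches (log2 fold change 2.72 ± 0.45, SE, n = 2 sums each; edgeR unadjusted p = 0.00521, adjusted p = 0.568). Reads of Osmr were found in 77.5% (66.8 to 86.1) and 55.3% (43.4 to 66.7) of inflamed cells and in 24.5% (13.8 to 38.3) and 25.4% (15 to 38.4) of naive cells. In cells thinned to 500000 counts the shares were 67.1% and 41.7% of inflamed and 15.2% and 21.8% of naive cells, so both inflamed shares stayed above both naive shares at equal depth. The highest cell gave 14.5% and 20.2% of the inflamed reads and 43.8% and 43.1% of the naive reads.

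Il13ra1 (ENSMUSG00000017057; chromosome X, 36112110 to 36171259, plus strand), a chain that binds interleukin 13, had 322 and 287 CPM in the inflamed sums and 33.9 and 71.7 CPM in the naive sums. These did not overlap either, with folds of 9.52 and 4.0 (log2 fold change 2.63 ± 0.51, SE, n = 2 sums each; edgeR unadjusted p = 0.00852, adjusted p = 0.568). Its reads were present in 81.2% (71 to 89.1) and 65.8% (54 to 76.3) of inflamed cells and in 49.1% (35.1 to 63.2) and 52.5% (39.1 to 65.7) of naive cells, so the intervals of batch 3 overlap. The median level over all cells was 48.5 and 11 CPM in inflamed and 0 and 0.938 CPM in naive cells, and 31 of 80 and 20 of 76 inflamed cells reached 100 CPM, against 4 of 53 and 6 of 59 naive cells. Single cells supplied 33.5% and 37.4% of its naive reads.

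Il4ra (ENSMUSG00000030748; chromosome 7, 125552120 to 125579474, plus strand), whose product pairs with that of Il13ra1, did not follow it. It had 39.9 and 27.4 CPM in the inflamed sums and 0.319 and 27.4 CPM in the naive sums, so only batch 2 showed a difference. Over both batches the fitted value was 3.43 ± 3.06 on the log2 scale (SE, n = 2 sums each; edgeR adjusted p = 0.847), and it was 1.28 without the batch in the model and 2.29 from means of per-cell CPM. Reads were found in 30% (20.3 to 41.3) and 11.8% (5.56 to 21.3) of inflamed and 5.66% (1.18 to 15.7) and 10.2% (3.82 to 20.8) of naive cells. In batch 3, 1 cell gave 57.1% of the inflamed reads and 1 cell 51.7% of the naive reads. Both chains of this receptor had reads in 21 of 80 and 6 of 76 inflamed cells and in 3 of 53 and 3 of 59 naive cells.

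Il6st (ENSMUSG00000021756; chromosome 13, 112464070 to 112510086, plus strand), the shared gp130 chain, had 157.2 and 153.8 CPM in the inflamed sums and 141.1 and 281 CPM in the naive sums. The naive sum of batch 3 was the highest, and 1 cell gave 31.7% of it. The log2 fold change was -0.36 ± 0.44 (SE, n = 2 sums each; edgeR adjusted p = 0.917), with 0.16 in batch 2 and -0.87 in batch 3. Reads were found in 78.8% (68.2 to 87.1) and 60.5% (48.7 to 71.6) of inflamed and 71.7% (57.7 to 83.2) and 91.5% (81.3 to 97.2) of naive cells. Levels of 100 CPM or more were found in 26.2% (17 to 37.3) and 22.4% (13.6 to 33.4) of inflamed and 20.8% (10.8 to 34.1) and 20.3% (11 to 32.8) of naive cells, and these intervals overlap.

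Lifr (ENSMUSG00000054263; chromosome 15, 7090614 to 7197489, plus strand), the chain for leukemia inhibitory factor, lies 215644 bases from Osmr on the same chromosome. It had 25.2 and 0.0132 CPM in the inflamed sums, from 1989 reads and 1 read, and 3.31 and 0 CPM in the naive sums. In batch 3 both sums were at or under the floor of 3 counts, so no fold is given there. In batch 2 Lifr was 7.61-fold higher, beside 7.25-fold for Osmr. A single cell gave 70.2% of the inflamed reads of Lifr there and 95.2% of the naive reads (log2 fold change over both batches 2.93 ± 1.87, SE, n = 2 sums each; edgeR adjusted p = 0.749). That value was 5.04 without the highest cell of each sum and 0.89 from means of per-cell CPM. Reads were found in 12 of 80 and 1 of 76 inflamed cells and in 2 of 53 and 0 of 59 naive cells, the last of which allows a share of up to 5.08%. Il6ra (ENSMUSG00000027947; chromosome 3, 89864059 to 89913196, minus strand), the chain specific to interleukin 6, was also low, at 10.4 and 6.96 CPM in the inflamed and 11.4 and 1.54 CPM in the naive sums. Its sums overlapped, and the log2 fold change was 1.02 ± 1.68 (SE, n = 2 sums each; edgeR adjusted p = 0.952). At least 1 read was found in 33.8% and 26.3% of inflamed and 24.5% and 15.3% of naive cells. The highest cell gave 52.3% and 24% of the inflamed reads of Il6ra and 54.7% and 38.4% of the naive reads. Il6ra and Il4ra each overlap an antisense gene, with 0 to 11 reads in any sum.

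**Figure D2:**
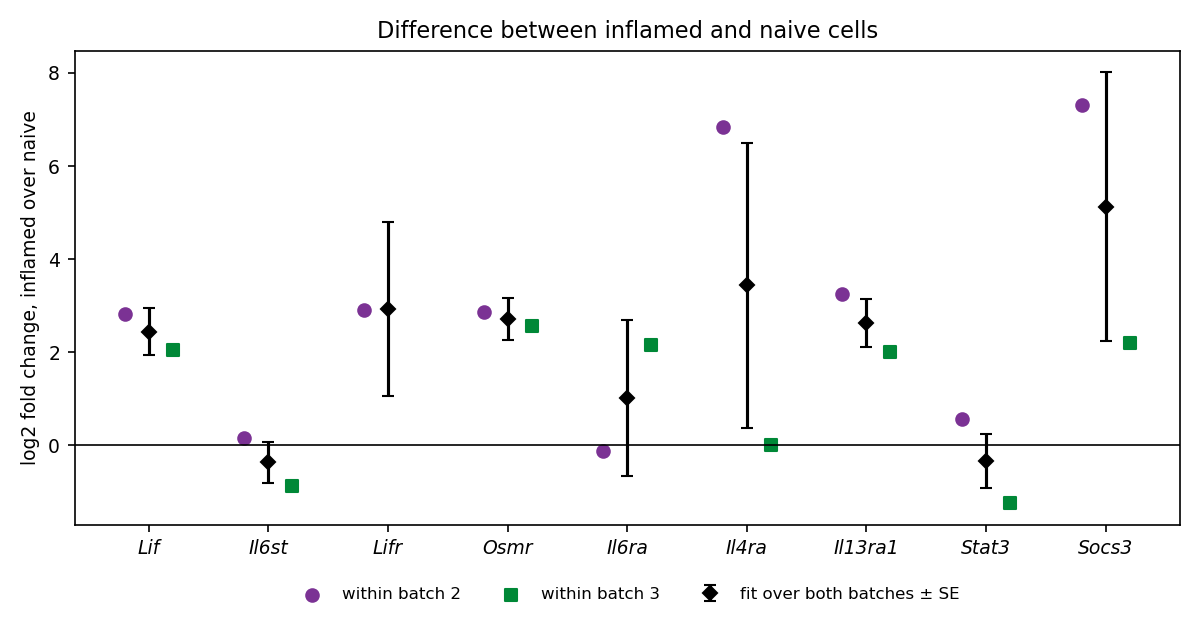
Log2 fold change of inflamed over naive cells for each gene (y axis), within batch 2 (circles), within batch 3 (squares; none for Lifr, at or under 3 counts) and in the fit over both batches with its standard error (diamonds). Lif, Osmr and Il13ra1 lie at 2.00 or above in both batches (standard errors 0.51, 0.45 and 0.51), whereas Stat3 and Il6st lie on either side of 0 (0.58 and 0.44).

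Stat3 (ENSMUSG00000004040; chromosome 11, 100885098 to 100939540, minus strand), the transcription factor of the pathway, had 330.3 and 262 CPM in the inflamed sums and 222 and 618 CPM in the naive sums. The naive sums lay on both sides of the inflamed ones. The difference was 0.57 on the log2 scale in batch 2 and -1.24 in batch 3, and -0.33 ± 0.58 in the fit (SE, n = 2 sums each; edgeR adjusted p = 0.956). Most cells had reads of Stat3: 96.2% (89.4 to 99.2) and 78.9% (68.1 to 87.5) of inflamed and 90.6% (79.3 to 96.9) and 79.7% (67.2 to 89) of naive cells. The median level over cells was 106.6 and 62.6 CPM in inflamed cells and 15.2 and 8.99 CPM in naive cells. The 90th percentile lay at 935 and 732 CPM in inflamed cells and at 729 and 2461 CPM in naive cells. In batch 2 the sum, the median and the 90th percentile were all higher in inflamed cells, whereas in batch 3 the median was higher and the sum and the 90th percentile were lower. In the naive sums 4 cells gave the first 50% of the reads of each sum, and in the inflamed sums 9 cells did. Stat3 overlaps Stat5a on the other strand, and without strand information reads in the overlap could not be assigned with certainty. Stat5a had 931 and 1685 reads in the inflamed sums and 5167 and 1306 in the naive sums.

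Socs3 (ENSMUSG00000053113; chromosome 11, 117966079 to 117970047, minus strand), the feedback inhibitor, stood at 4.88 and 65.6 CPM in the inflamed sums, from 385 and 4986 reads. In the naive sums it stood at 0 and 14.3 CPM, from 0 and 680 reads. The inflamed sum of batch 2 lay below the naive sum of batch 3, so the groups overlapped. With the naive sum of batch 2 set to a floor of 3 counts for the whole sum, Socs3 was at least 91.9-fold higher there, counting error only, and within batch 3 it was 4.58-fold higher. The fit gave an edgeR unadjusted p = 0.156 and adjusted p = 0.700. Reads were found in 31.2% (21.3 to 42.6) and 35.5% (24.9 to 47.3) of inflamed cells, and in 0 of 53 (which allows a share of up to 5.66%) and 25.4% (15 to 38.4) of naive cells. In batch 3, 1 cell gave 54.9% of the inflamed reads and 1 cell 80.4% of the naive reads, and the median level in cells with a read was 11.3 and 5.61 CPM.

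**Figure D3:**
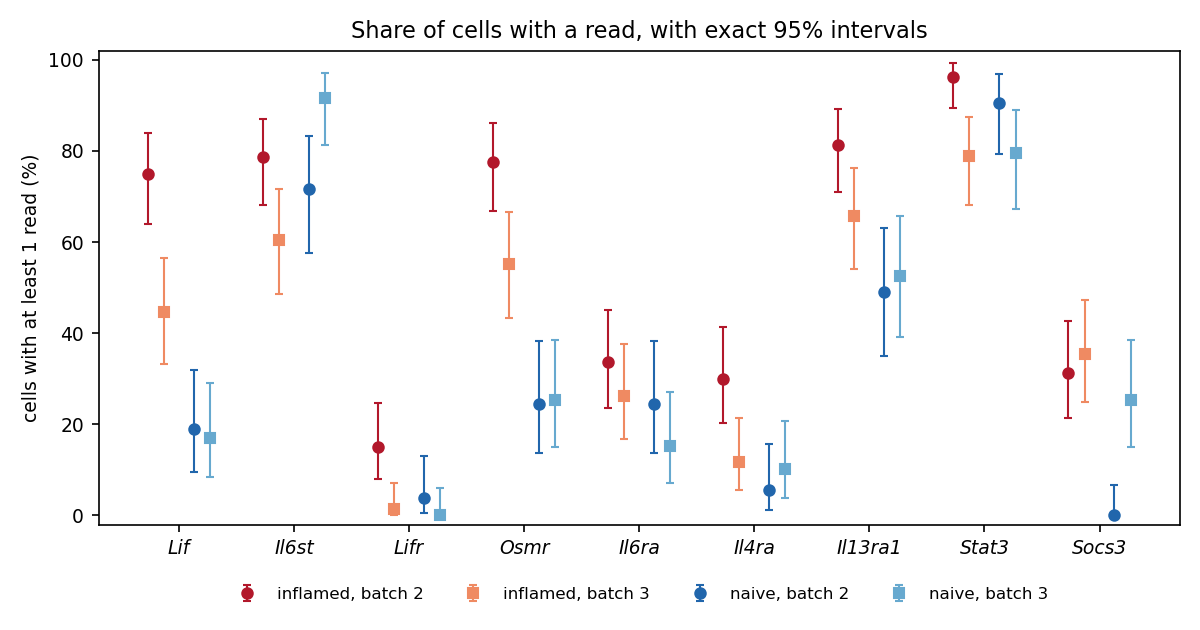
Percent of cells with at least 1 read of each gene (y axis), by condition and batch, with exact 95% binomial intervals that cover counting error only. The inflamed shares of Lif and Osmr, between 44.7% and 77.5%, stand above the naive shares, between 16.9% and 25.4%.

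Of the 9 genes, 4 were higher in both batches (Lif, Osmr, Il13ra1 and Socs3), against 30.6% of all genes tested, and 0 were lower in both, against 27.2%. All 4 were at least 2-fold higher in both batches, as were 14.6% of all genes. Both inflamed sums lay above both naive sums for 3 genes, and 24.3% of all genes did so, while 0 of the 9 and 21.3% of all genes had both inflamed sums below. The median log2 fold change of the 9 genes was 2.86 in batch 2 and 2.00 in batch 3, with sums under 3 counts set to 3, beside 0.04 in each batch for all genes tested. The 9 genes were chosen with earlier results of these data known, so these counts and medians are a description only. DESeq2, fitted to the same sums, called 927 genes higher (7.13%) and 534 lower (4.11%) of the 13001 to which it gave an adjusted p. It called Il13ra1 (DESeq2 adjusted p = 0.000192), Osmr (0.00025), Lif (0.00211) and Socs3 (0.00307) higher, and 0 of the 9 lower.

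Per kilobase of exon sequence, the order of the genes differed between the conditions. In inflamed cells Il13ra1 came first, at 86.9 and 77.3 CPM per kilobase, followed by Lif at 37.5 and 33.7 and Stat3 at 34.7 and 27.5, which overlapped each other. Osmr at 18.8 and 9.06 and Il6st at 14.2 and 13.9 CPM per kilobase overlapped too, and Il4ra followed at 6.65 and 4.56. Socs3 had no fixed place, at 1.69 CPM per kilobase in batch 2, where it was eighth, and at 22.7 in batch 3, above Osmr and Il6st. In naive cells Stat3 came first, at 23.3 and 64.9 CPM per kilobase, ahead of Il6st at 12.7 and 25.4 and Il13ra1 at 9.12 and 19.3, and each of these overlapped its neighbour. Lif stood at 5.26 and 8.14 and Osmr at 2.59 and 1.52 CPM per kilobase in naive cells. Osmr was thus near the level of its partner Il6st per kilobase in inflamed cells and far under it in naive cells.

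At the level of single cells, both chains of the oncostatin M receptor, Osmr and Il6st, had reads in 51 of 80 and 29 of 76 inflamed cells, against 9 of 53 and 13 of 59 naive cells. These are 63.8% and 38.2% of inflamed cells, where the product of the separate shares is 61% and 33.4%, and 17% and 22% of naive cells, where it is 17.6% and 23.3%. Among cells with a read of Il6st, 81% and 63% of inflamed cells also had one of Osmr, against 23.7% and 24.1% of naive cells. Among cells with a read of Osmr, 82.3% and 69% of inflamed and 69.2% and 86.7% of naive cells had one of Il6st. In thinned cells both chains were found in 48.6% and 29.2% of inflamed and 8.70% and 18.2% of naive cells. Il6st and Il6ra were found together in 22 of 80 and 16 of 76 inflamed cells and in 10 of 53 and 9 of 59 naive cells, and Il6st and Lifr in 8 and 0 inflamed and 1 and 0 naive cells.

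Of the 6 receptor genes, the median cell had reads of 3 and 2 in the inflamed sets and of 2 and 2 in the naive sets. At least 4 of them were found in 34 of 80 inflamed cells of batch 2 (42.5%) and 11 of 76 of batch 3 (14.5%), against 4 of 53 (7.55%) and 5 of 59 (8.47%) naive cells. At 500000 counts per cell these shares were 30% and 12.5% of inflamed and 4.35% and 5.45% of naive cells. The share was highest in the inflamed cells of batch 2 by both counts. Lif and Osmr were found together in 48 of 80 and 23 of 76 inflamed cells and in 4 of 53 and 3 of 59 naive cells. That is 60% and 30.3% of inflamed cells, where the product of the separate shares is 58.1% and 24.7%. In naive cells it is 7.55% and 5.08%, where the product is 4.63% and 4.31%. Every one of the 25 inflamed cells of batch 2 with a read of Socs3 also had one of Stat3, as did 22 of 27 in batch 3, and in naive cells of batch 3 it was 12 of 15. The product of the separate shares of both genes comes close to these pairs: both were found in 31.2% and 28.9% of inflamed cells, where the product is 30.1% and 28%, and in 20.3% of naive cells of batch 3, where it is 20.3%.

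**Figure D4:**
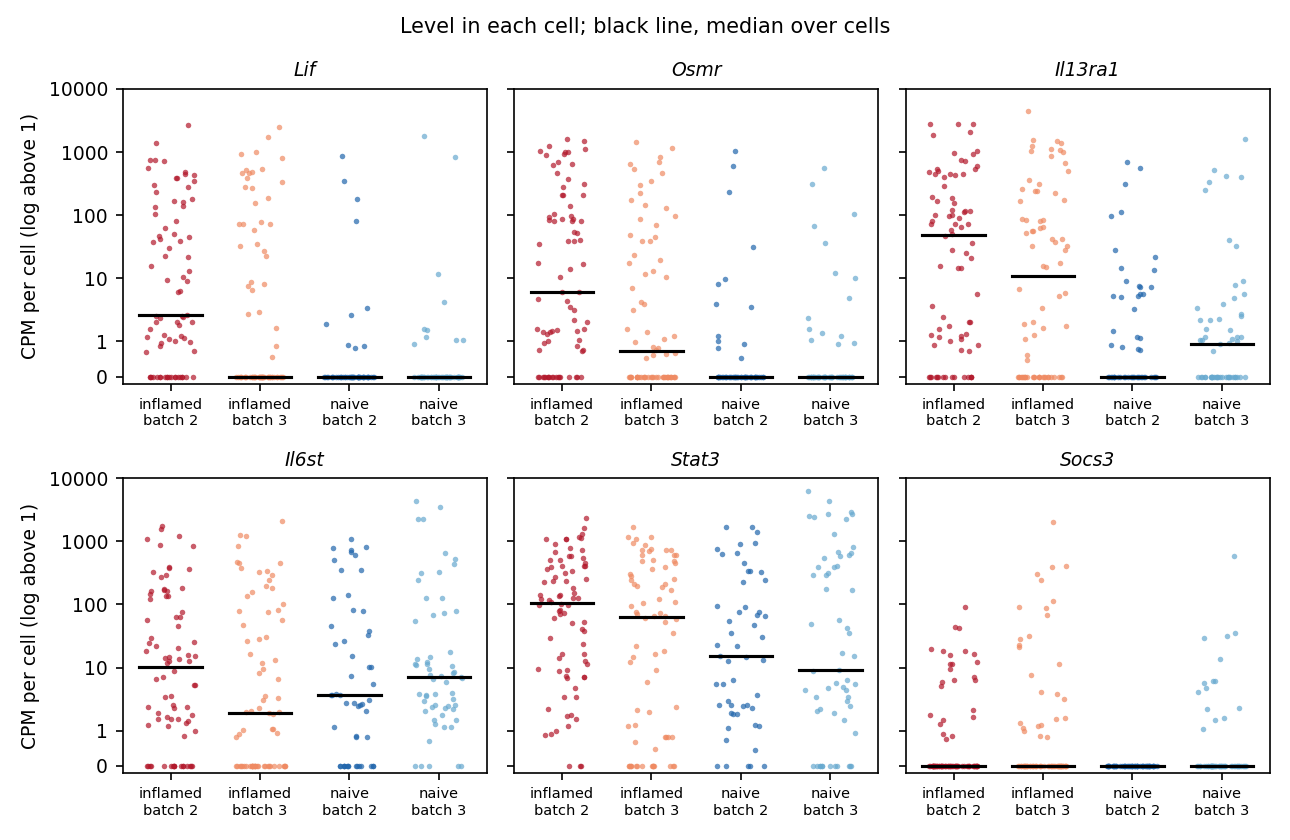
Level of Lif, Osmr, Il13ra1, Il6st, Stat3 and Socs3 in single cells in CPM (y axis, logarithmic above 1; 1 point per kept cell), by condition and batch, with the median over cells as a black line. Stat3 medians are 106.6 and 62.6 CPM in inflamed and 15.2 and 8.99 CPM in naive cells, while a few naive cells of batch 3 reach up to 6294 CPM.

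The remaining genes of the pathway were read from lists of known members, chosen with earlier results of these data known. Of any list, 0 genes passed after adjustment (edgeR, Benjamini-Hochberg), as was so for all genes. Of 11 ligand genes of the family, 3 could be tested. Of these, 2 were higher and 0 lower in both batches, beside 30.6% and 27.2% of all genes tested. Beside Lif the higher one was Clcf1, cardiotrophin-like cytokine factor 1, with 205 and 674 reads in the inflamed sums and 0 and 2 in the naive sums, from 8 and 4 inflamed cells and 1 naive cell (edgeR unadjusted p = 0.0372). Il6 itself, which was picked after its values were seen, had 45.7 and 63.7 CPM in the inflamed and 13.8 and 109.7 CPM in the naive sums, with opposite directions in the batches. Osm, the gene of oncostatin M, had no read in any set, and Il11, Ctf1, Cntf, Il27 and Ebi3 were below the filter. Of 8 receptor genes of the family 5 could be tested, and 1 was higher and 1 lower in both batches. Neither count is above the 30.6% and 27.2% of all genes. The higher one was Osmr. The lower one was Il11ra1, the interleukin 11 receptor chain, at 6.03 and 4.41 CPM in inflamed and 18.1 and 10.0 CPM in naive cells (edgeR unadjusted p = 0.369; named after its values were seen). The median log2 fold change of these 5 was 0.16 in batch 2, with sums under 3 counts set to 3. In batch 3 Lifr, at or under 3 counts in both sums, stood in the middle, so no median is given. The other genes there had 2.57 (Osmr), 2.16 (Il6ra), -0.87 (Il6st) and -1.18 (Il11ra1).

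Of the interleukin 4 and 13 genes, Il13 and Il2rg had no reads and Il4 and Il13ra2 were below the filter, so that Il4ra and Il13ra1 stood alone. Among 10 class II cytokine receptor genes, 7 could be tested, and 4 were higher in both batches (Ifngr1, Ifngr2, Ifnar1 and Ifnlr1) and 0 lower, beside 30.6% and 27.2% of all genes. Ifngr1, a chain of the interferon gamma receptor, had 189.7 and 277 CPM in inflamed and 70.3 and 102.01 CPM in naive cells (log2 fold change 1.44 ± 0.36, SE, n = 2 sums each; edgeR unadjusted p = 0.0191). Its naive reads came to 49.1% and 55.4% from 1 cell.

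Jak2, a kinase that gp130 and the interferon gamma receptor use, had the smallest unadjusted p of the 4 Janus kinases. It stood at 81.9 and 145.6 CPM in the inflamed sums and 3.03 and 6.42 CPM in the naive sums, 27-fold and 22.7-fold (log2 fold change 4.63 ± 0.63, SE, n = 2 sums each; edgeR unadjusted p = 0.00258, adjusted p = 0.568). Reads of Jak2 were found in 71.2% and 57.9% of inflamed and 18.9% and 33.9% of naive cells, and 1 cell gave 78.9% of the naive reads of batch 2. Jak1, another kinase of gp130, had its highest sum in naive cells of batch 3, as Il6st and Stat3 did, at 289 and 286 CPM in inflamed and 284 and 711 CPM in naive cells. Jak1 was named after its values were seen.

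Of 21 listed targets of STAT3 that could be tested, out of 26, 15 were higher and 5 were lower in both batches, beside 30.6% and 27.2% of all genes tested. These 21 had median log2 fold changes of 0.93 and 0.60, beside 0.04 in each batch for all genes. At an unadjusted p under 0.05, edgeR had 4 higher and 1 lower, beside 5.04% and 3.23% of all genes. Pim1, a survival kinase, had 447 and 590 CPM in inflamed and 234 and 339.7 CPM in naive cells (log2 fold change 0.87 ± 0.29, SE, n = 2 sums each; edgeR unadjusted p = 0.0449). Reg3g, an antibacterial lectin, had 9618 and 2177 reads in the inflamed sums and 0 and 5 reads in the naive sums, from 26 and 10 inflamed cells and 0 and 2 naive cells (edgeR unadjusted p = 0.0156). Lrg1, a secreted glycoprotein, had 38 and 78 reads from 4 cells and 1 cell in the inflamed sums and 0 reads in both naive sums. Lcn2, lipocalin 2, named after its values were seen, had 1444 and 494 CPM in inflamed and 410.1 and 318 CPM in naive cells. Fos, which is both a STAT3 target and an immediate early gene, was lower, at 349.7 and 425 CPM in inflamed and 2426 and 2677 CPM in naive cells. Targets of STAT6 could hardly be read, since 6 of 12 had no reads and 4 were below the filter. The list of 16 feedback inhibitors and phosphatases had 15 genes tested, 6 higher and 2 lower in both batches, with medians of 0.60 and 0.13. The 6 of 15 are near the 30.6% of all genes that were higher, and 27.2% of all genes were lower.

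The 16 immediate early genes, which mark acute stimulation or handling of cells, had 14 lower and 0 higher in both batches, beside 27.2% and 30.6% of all genes. Of these, 10 were lower at an unadjusted p under 0.05 (edgeR), beside 3.23% of all genes, and the medians of the list were -1.67 and -1.66, beside 0.04 in each batch for all genes. Egr1 had 376 and 802 CPM in inflamed and 5671 and 9366 CPM in naive cells, Jun 172.5 and 245 against 1238 and 1354, and Nr4a1 79.04 and 111.1 against 1148 and 1011. Their level moved with the condition beside Lif, Osmr and Il13ra1, and their part in those differences was not tested.

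**Figure D5:**
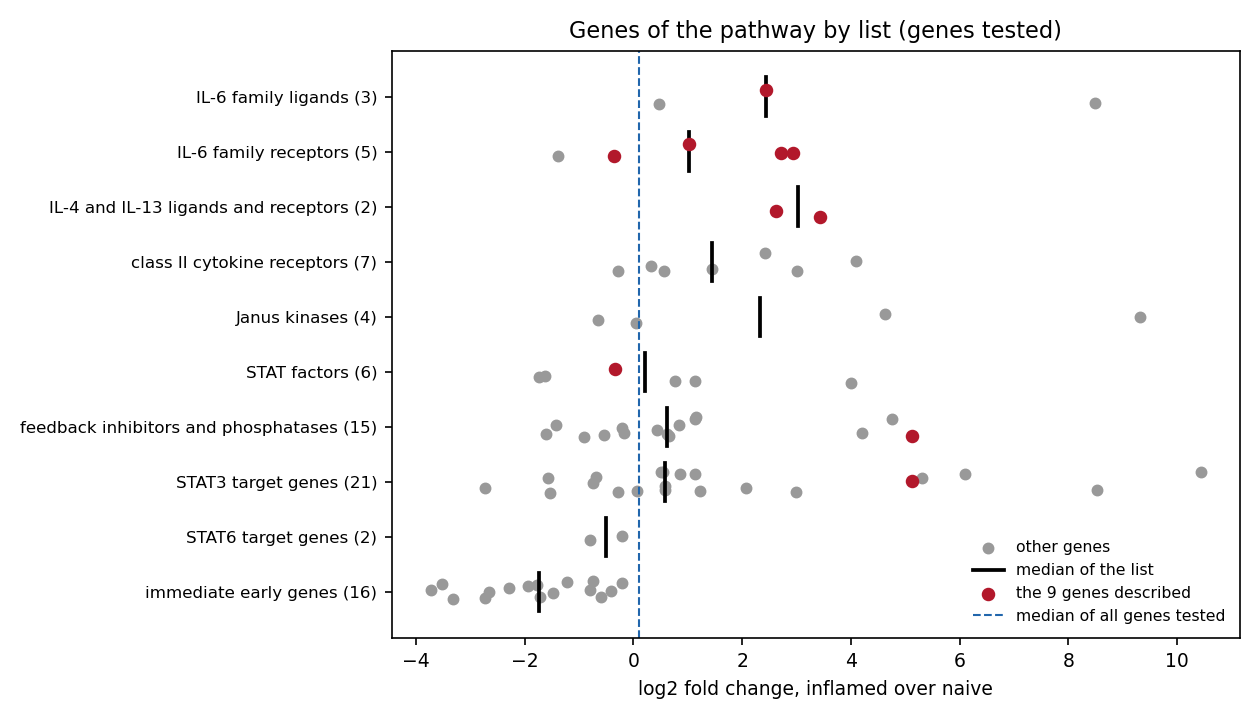
Log2 fold change of inflamed over naive cells from the fit over both batches (x axis) for each tested gene of the pathway lists (rows), with the 9 genes in red, other genes in grey and the median of each list as a black bar. The immediate early genes lie to the left of 0, and the STAT3 targets spread from Fos at -2.72 to genes with no or few naive reads on the right.

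Over the 268 kept cells, with each gene centred on its mean in each condition and batch, the highest Spearman correlation of log CPM between any 2 of the 7 genes present in 20% of cells or more was 0.24, between Osmr and Il13ra1, and the lowest was 0.01, between Il6ra and Stat3. By the same measure over 6981 genes, the closest to Stat3 were Plk2 (0.31), Tnfrsf12a (0.27) and Pim1 (0.27), and those closest to Osmr were Fam69a (0.35), Gm21092 (0.33) and Eps15l1 (0.32). The closest to Lif were Gch1 (0.33), Rbm18 (0.31) and Zdhhc4 (0.29), and to Il13ra1 Sgta (0.29), Napg (0.27) and Tmem167 (0.27). For Socs3 they were Cd2bp2 (0.39), Ddx20 (0.37) and Krt6a (0.34), for Il6ra Fhdc1 (0.38), Lypd3 (0.37) and Slc35a3 (0.36), and for Il6st Hp1bp3 (0.24), Kdm1a (0.23) and Acot10 (0.23). Cells of a set share their library preparation and differ in depth, counts are sparse, and correlations of this size are a description only.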

How the data were processed

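Each batch has 1 deposited table of raw read counts with 48440 gene rows and 1 column a cell, and 48058 identifiers matched a symbol in GENCODE vM21 (GRCm38). TopHat2, HTSeq, R 3.4.1, Seurat 1.4 and the build GRCm38.p6 are named per the submitters' processing notes, without roles, and the sources used here do not state the strand of the reads or how reads with several positions were handled. All 282 cells had a column, no 2 had identical counts, and doublets were not called. A cell's total lay between 2725 and 2219764 counts.

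Cells with under 1000 genes or 50000 counts (14) were left out. Counts were summed per condition and batch (sums of 50105953 to 79225330 counts) and tested with edgeR 4.0.16 in R 4.3.3: quasi-likelihood F test, filterByExpr on condition, TMM factors, batch and condition in the model, 1 residual and 2.66 prior degrees of freedom, Benjamini-Hochberg adjusted p under 0.05 over 14713 genes. Standard errors are the fold change over the root of F. Within-batch log2 fold changes used log CPM with a prior count of 2. Shares have Clopper-Pearson intervals (95%); a share of 0 is given with a limit of 3 cells, and a sum of 0 with a floor of 3 counts for the whole sum of cells. Intervals and floors cover counting error only. Thinning to 500000 counts left out 10 and 4 inflamed and 7 and 4 naive cells of batches 2 and 3. The labels name the batch, which pairs the sums, and batch deviations of the inflamed and naive sums had a correlation of -0.01 across genes. The script was also tested on simulated data.

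The 9 genes and all lists were chosen with earlier results of these data known. Beside the 9, each list names up to 4 genes with the smallest unadjusted p under 0.05 and 1 direction in both batches, and likeness names the 3 genes of highest Spearman correlation. Alternatives were DESeq2 1.42.0, no batch term, RLE and upper-quartile factors, other gene filters, all cells, thinned cells, sums without their highest cell, means of per-cell CPM and each batch alone. Promoters are RefSeq's.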

Additional observations from a re-analysis of the deposited data

Results flagged for a closer look

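Of the 9 genes, Il6st, Stat3 and Il6ra had an inflamed sum above the naive sum in one batch and below it in the other. Il4ra had a log2 fold change of 6.84 in batch 2 and -0.0012 in batch 3, where its sums were nearly equal. Il6st, the gp130 gene, had a log2 fold change of 0.16 in batch 2 and -0.87 in batch 3. Stat3 had 0.57 in batch 2 and -1.24 in batch 3. Its median over cells was higher in inflamed cells in both batches (106.6 and 62.6 CPM, against 15.2 and 8.99 CPM in naive cells). Il6ra, the interleukin 6 receptor chain, had -0.13 in batch 2 and 2.16 in batch 3. Its share of cells with a read was higher in inflamed cells in both batches (33.8% and 26.3%, against 24.5% and 15.3%), with overlapping intervals. Each batch gives a single pair of sums, so the difference between the batches was not tested. The highest cell gave 31.7% of the reads of Il6st and 18.4% of those of Stat3 in the naive sum of batch 3. For Il6ra in batch 2, 1 cell gave 52.3% of the inflamed reads and 1 cell 54.7% of the naive reads. The part of single cells in these opposite signs was not tested.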

How the results depend on the processing

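edgeR called 0 genes higher and 0 lower under each of its alternatives (lowest adjusted p 0.0887 among genes found in at least 20% of cells, where 508 were higher and 377 lower by unadjusted p under 0.05), and DESeq2 called 927 higher and 534 lower. Without the replicate block for batch, edgeR also called 0 and 0, with 1155 higher and 681 lower unadjusted (lowest adjusted p 0.297), and the log2 fold changes were 2.41 for Lif, 2.76 for Osmr, 2.53 for Il13ra1 and 2.30 for Socs3. That setting moved the median of all genes by -0.14 and dropping the gene filter moved it by 0.11. Over all alternatives that keep both batches, log2 fold changes ranged from 2.04 to 3.61 for Lif, 2.36 to 3.26 for Osmr, 2.53 to 2.99 for Il13ra1, 2.20 to 5.91 for Socs3, 0.89 to 5.04 for Lifr and 1.28 to 3.94 for Il4ra, with edgeR adjusted p from 0.203 to 0.921. With 1 batch left out there is no test, and Il6st ranged from -0.87 to 0.16, Il6ra from -0.13 to 2.16, Il4ra from -0.0012 to 6.84 and Stat3 from -1.24 to 0.57. The cause of these changes was not tested. Genes higher in both batches numbered 4 of the 9 (30.6% of all genes tested), or 5 with upper-quartile factors, no gene filter or thinned cells. The share of all genes is not given for those settings. In the main fit Il4ra lay at -0.0012 in batch 3, where a small shift changes its sign. Asking for at least 5 reads in place of 1 moved 30 of 36 shares of cells. With 2 batches, 1 residual degree of freedom and several sums carried largely by 1 cell, depth and cell number limit what these levels show.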
